A study of Mus musculus with 2 samples.

Results

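The granzymes, perforin and Nkg7, the proteins with which lymphocytes kill, were described gene by gene in a pair of spatial transcriptomic libraries of mouse pancreatic tumors. The members were taken by symbol: Gzma, Gzmb, Gzmc, Gzmd, Gzme, Gzmf, Gzmk, Prf1 and Nkg7. Of these 9 genes, 8 were among the 19465 genes of the capture panel, and Gzmd was not on the list. Both libraries came from orthotopic allografts, that is, tumor cells of the KPC line injected into the pancreas of a mouse. KPC cells were made from genetically engineered mice whose alleles include mutant Trp53 and a Pdx-1-Cre transgene, which acts in the pancreas. One library was labelled as injected with KPC-shZEB1 cells, which carry an shRNA against ZEB1, a transcription factor that represses epithelial genes, and the other as injected with KPC-shV cells, the control line. By the study's account, the sections came from tumors of mice given gemcitabine, which the sample labels do not name. The mice of the study were bought at a few weeks of age, and which of its strains these libraries came from is not given in the sources used here. There was 1 library per group, so no difference between the groups was tested. The protocol mentions a pair of tumors per group without saying which of them a library covers. All intervals given are 95% intervals that cover counting error only, and neighbouring spots are not independent.

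Granzymes are serine proteases that cytotoxic T cells and natural killer (NK) cells store in granules together with perforin (Prf1). On contact with a target, perforin opens the target's membrane, and the granzymes enter and cleave proteins such as caspases. Nkg7 is a membrane protein of the same granules. In the mouse, Gzma and Gzmk lie together on chromosome 13, whereas Gzmb, Gzmc, Gzmd, Gzme, Gzmf and their relatives Gzmg and Gzmn form a cluster on chromosome 14 that also holds Mcpt8, a protease gene known as a marker of basophils. The chromosome 14 genes other than Gzmb are known from strongly activated T cells and from NK cells of the pregnant uterus.

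The members were located in GRCm38, the build of the files, through the GENCODE M21 annotation. Gzma covers chromosome 13 from 113093825 to 113100981 and Gzmk from 113171608 to 113225908, both on the minus strand. On the minus strand of chromosome 14, in this order along the chromosome, stand Mcpt8 (56082166 to 56085273), Gzme (56117626 to 56120625), Gzmd (56129556 to 56132608), Gzmg (56156582 to 56159579), Gzmn (56165797 to 56174599), Gzmf (56205263 to 56211417), Gzmc (56231441 to 56234656) and Gzmb (56258838 to 56262260). Prf1 lies on the plus strand of chromosome 10 (61297833 to 61304680) and Nkg7 on the plus strand of chromosome 7 (43437073 to 43438249). Gzmd, Gzme, Gzmf and Gzmg are close to one another in sequence, which bears on how far a hybridisation probe can separate them. The coding sequences of Gzmd and Gzme were identical at 94.8% of 744 aligned bases, with a longest shared run of 96 bases, and those of Gzme and Gzmg at 90.0%, with a run of 90. Gzmf and Gzmg shared 87.1% and a run of 63 bases. Gzmc was further off, with 73.8% identity to Gzme, and Gzma was at 61.4% to Gzme, with no shared run above 11 bases. Gzme and Mcpt8 shared 65.1%, with no run longer than 14 bases. The first 60 coding bases are printed below. In this stretch Gzmc differs from Gzme at 2 bases, fewer than Gzmd, Gzmg or Gzmf, unlike over the whole coding sequence. Capitals mark the bases that differ from Gzme.
Gzme: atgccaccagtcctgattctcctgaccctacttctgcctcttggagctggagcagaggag
Gzmd: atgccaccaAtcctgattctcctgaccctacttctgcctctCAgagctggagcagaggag
Gzmg: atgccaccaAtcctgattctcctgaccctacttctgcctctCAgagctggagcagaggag
Gzmf: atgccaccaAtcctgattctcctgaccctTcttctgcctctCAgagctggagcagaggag
Gzmc: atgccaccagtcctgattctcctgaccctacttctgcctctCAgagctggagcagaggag
Gzmb: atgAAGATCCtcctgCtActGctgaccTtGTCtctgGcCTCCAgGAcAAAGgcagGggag
Gzmd and Gzmg were identical over this stretch, and Gzmb differed from Gzme at 27 of the 60 bases. Transcripts of Gzmd were not counted under their own name, and whether any were read as Gzme or Gzmg was not tested, since the probe sequences were not used here.

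Each library counts unique molecular identifiers (UMIs) per gene in spots, and a spot, a small patch of tissue, mixes the RNA of the cells that lie in it. The library labelled KPC-shZEB1 held 2220 spots and 140493626 UMIs, and the KPC-shV-labelled library held 3552 spots and 172059528 UMIs, with median depths of 59957.5 and 52544.5 UMIs per spot. Spots in which acinar genes, those of the normal exocrine pancreas, took over 20% of the UMIs are called acinar-rich here. They were 34.5% of the spots and held 39.4% of the UMIs in the KPC-shZEB1-labelled library, and 7.55% and 3.92% in the other, and with them the median gene had a log2 ratio of -0.48 between the libraries, against -0.02 without them. Barcodes name places on the array, and 1718 of them occurred in both libraries. Zeb1 was read at 10.8 UMIs for each 1000000 UMIs (CPM) in the KPC-shZEB1-labelled library and 12.4 CPM in the KPC-shV-labelled library, and at 15.6 and 12.7 CPM outside acinar-rich spots. Outside acinar-rich spots Zeb1 thus went against the label, and Zeb1 of tumor cells and of host cells cannot be told apart in these spots, so the libraries are named by their labels throughout. The T cell receptor genes Cd3d, Cd3e and Cd3g (the Cd3 genes) summed to 49.7 CPM and 13.3 CPM, and 8 NK cell genes (Ncr1, Klrb1c, Klre1, Klri2, Klra4, Klra7, Klra8 and Klra9) to 13.5 and 10.0 CPM. Of the NK genes, 3 and 5 were not above the genes used as a measure of background, so the NK sum is in part background. Those 17 genes, which neither pancreas nor tumor is expected to express, reached up to 1.32 and 1.45 CPM over all spots.

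Over all spots, Gzme differed most between the libraries and was lower in the KPC-shZEB1-labelled library than in the KPC-shV-labelled library, at 3.55 CPM (3.25 to 3.88) against 19.1 CPM (18.5 to 19.8), for a log2 ratio of -2.43 (-2.57 to -2.29). Gzmf, Nkg7 and Prf1 were higher in the KPC-shZEB1-labelled library, by 0.99, 0.93 and 0.57 on the log2 scale. Gzma, which encodes the tryptase-like granzyme, and Gzmb, which encodes the caspase-cleaving one, differed by less than counting error. A log2 ratio past 1 in either direction is used below as a fixed rule of size. Among 15358 genes with at least 100 UMIs in each library, 2.40% were above 1 and 9.21% below -1, and of the 8 members 0 were above and 1, Gzme, below. Of those 15358 genes, 41 had a lower ratio than Gzme.

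**Figure D1:**
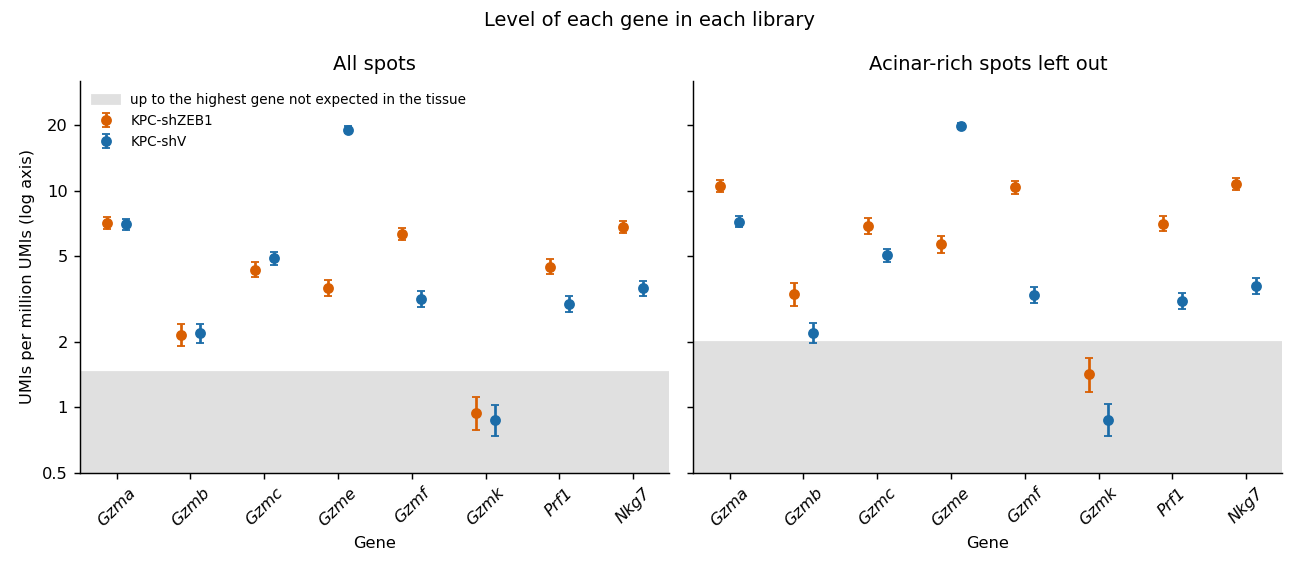
Level of each gene in UMIs per 1000000 UMIs (log axis) in the KPC-shZEB1-labelled library (orange) and the KPC-shV-labelled library (blue), over all spots (left) and with acinar-rich spots left out (right); bars are 95% Poisson intervals of the count, and the grey band reaches up to the highest of the background genes. Gzme stands at 19.1 CPM in the KPC-shV-labelled library, above every other gene plotted, and Gzmk lies inside the band in both libraries.

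Leaving out the acinar-rich spots, which hold few UMIs of any member, raised all 8 ratios. Outside them, 4.88% of 14365 genes were above 1 and 2.00% below -1. Among the members 3 were above 1, namely Gzmf, Nkg7 and Prf1, and 1 was below -1, again Gzme. Gzmf stood at 10.3 CPM (9.67 to 11) in the KPC-shZEB1-labelled library and 3.29 CPM (3.02 to 3.58) in the KPC-shV-labelled library, a log2 ratio of 1.65 (1.5 to 1.81). Nkg7 stood at 10.8 CPM (10.1 to 11.5) and 3.63 CPM (3.34 to 3.93), for a log2 ratio of 1.57 (1.42 to 1.72). Prf1 stood at 7.04 CPM (6.49 to 7.63) and 3.10 CPM (2.83 to 3.38), for a log2 ratio of 1.19 (1.01 to 1.36). All of these were well clear of the background genes, of which the highest stood at 2.00 CPM in the KPC-shZEB1-labelled library.

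The remaining granzymes differed less. Outside acinar-rich spots, Gzma was read at 10.5 CPM and 7.19 CPM (log2 ratio 0.55, 0.42 to 0.68). Gzmb was read at 3.32 CPM and 2.20 CPM (log2 ratio 0.59, 0.36 to 0.82), and Gzmc, a granzyme of activated T cells, at 6.88 CPM and 5.01 CPM (log2 ratio 0.46, 0.30 to 0.61). Of the genes tested, 84.6% to 89.0% had a lower ratio than these 3 members. The direction for Gzmc depended on the acinar-rich spots, since over all spots it was 4.31 CPM and 4.88 CPM (log2 ratio -0.18, -0.33 to -0.02). Gzmk, a granzyme of memory-like T cells, was read at 0.940 CPM and 0.872 CPM over all spots, at or below the background genes in both libraries, and no level above background was detectable at this depth. Fewer cells that express a gene and less RNA per cell cannot be told apart in these sums.

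Summed over the 8 members, the libraries held 35.6 CPM (34.6 to 36.6) and 43.8 CPM (42.8 to 44.8), and 56.0 CPM (54.4 to 57.6) and 45.2 CPM (44.1 to 46.2) outside acinar-rich spots. The sum therefore changed direction with the spots used. Gzme alone gave 3287 of the 7530 UMIs of all members in the KPC-shV-labelled library and 499 of 4998 in the KPC-shZEB1-labelled library.

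Set against the T cells in the tissue, every member was lower in the KPC-shZEB1-labelled library. Per UMI of the Cd3 genes there were 0.142 UMIs of Gzma in the KPC-shZEB1-labelled library and 0.526 in the KPC-shV-labelled library, a log2 ratio of -1.89. Gzmf, with the ratio nearest 0, stood at 0.127 and 0.239 (log2 ratio -0.91, -1.08 to -0.74), Nkg7 at 0.137 and 0.267 (-0.97, -1.13 to -0.81) and Prf1 at 0.0896 and 0.226 (-1.34, -1.52 to -1.15). Gzmb was counted 0.0434 and 0.165 times per Cd3 UMI and Gzmc 0.0869 and 0.367 times. Gzme, at 0.0715 and 1.44 UMIs per Cd3 UMI, outnumbered the Cd3 genes themselves in the KPC-shV-labelled library. The Cd3 genes themselves were higher in the KPC-shZEB1-labelled library, and this denominator moves almost every gene the same way: per Cd3 UMI, 97.1% of 15355 genes fell below a log2 ratio of -1 over all spots and 98.3% of 14362 outside acinar-rich spots, where 6 of the 8 members did in both cases. The 2 members that did not were Gzmf and Nkg7.

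Per UMI of the 8 NK genes, the members split. Gzmf (0.467 and 0.317 UMIs, log2 ratio 0.56, 0.38 to 0.74) and Nkg7 (0.501 and 0.355 UMIs, 0.50, 0.32 to 0.67) were higher in the KPC-shZEB1-labelled library. Prf1 did not differ beyond counting error (0.329 and 0.300 UMIs, 0.13, -0.06 to 0.32). Gzma, Gzmb, Gzmc and Gzme were lower, at -0.42, -0.46, -0.61 and -2.86. The NK sum itself had a log2 ratio of 0.43 in CPM over all spots, and dividing by it lowers the ratio of every gene alike. The share of all genes below 0 per NK UMI was not computed. In CPM over all spots, Gzma (0.01), Gzmb (-0.02) and Gzmc (-0.18) stood above the median gene (-0.48), and Gzme (-2.43) below it. Being lower per NK UMI is thus not read as particular to Gzma, Gzmb or Gzmc. The NK sum held 1902 and 1723 UMIs.

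**Figure D2:**
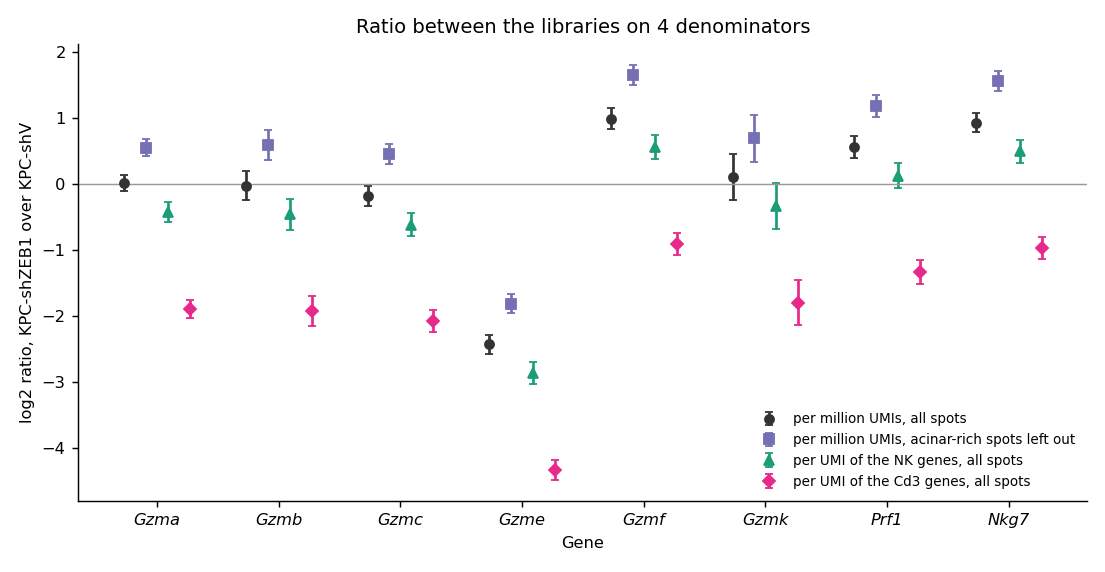
Log2 ratio of each gene between the KPC-shZEB1-labelled library and the KPC-shV-labelled library per 1000000 UMIs over all spots (circles), per 1000000 UMIs with acinar-rich spots left out (squares), per UMI of 8 NK genes (triangles) and per UMI of the Cd3 genes (diamonds); bars are 95% intervals. Every gene is lower per Cd3 UMI, from -0.91 for Gzmf to -4.33 for Gzme, while Gzmf and Nkg7 are above 0 on the other denominators.

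The members differed in how their UMIs were spread over spots. Gzmf was the most concentrated: the 1% of spots with the most of it held 76.9% of its UMIs in the KPC-shZEB1-labelled library and 79.1% in the KPC-shV-labelled library, with up to 94 and 75 UMIs in 1 spot. The same share was 19.7% and 29.9% for Gzma, 31.4% and 35.2% for Gzmc and 20.8% and 30.2% for Prf1. Nkg7 was spread more evenly, with 10.3% and 15.5% of its UMIs in the top 1% of spots. Gzme in the KPC-shV-labelled library was spread widest, with a UMI in 40.4% of spots, at most 14 in 1 spot and 10.3% of its UMIs in the top 1%. In the KPC-shZEB1-labelled library, 14.3% of spots had a Gzme UMI.

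By kind of spot, acinar-rich spots held 1.72 CPM of Gzma (1.39 to 2.10) and 0.651 CPM of Nkg7 (0.456 to 0.901) in the KPC-shZEB1-labelled library. The other members stood between 0.127 CPM, for Gzmf, and 0.452 CPM, for Prf1, there, where the background genes averaged 0.352 CPM. In the same library, Gzma was highest in the 128 spots outside acinar-rich areas that were rich in B cell genes (over 200 CPM of them), at 24.0 CPM (19.6 to 29.1) against 9.80 CPM (9.13 to 10.5) in the remaining 1326 spots. These spots were shallower, with a median of 29410.5 against 60081 UMIs, and the Cd3 genes stood at 172.0 CPM in them against 74.4 CPM, whose part in the level of Gzma was not tested. Gzmf and Gzme stood lower in the B cell rich spots, at 3.66 CPM (2.09 to 5.94) and 1.60 CPM (0.644 to 3.30), than in the remaining spots, at 10.7 CPM and 5.89 CPM. Nkg7, at 14 CPM (10.7 to 17.9) and 10.6 CPM (9.89 to 11.3), and Prf1, at 7.09 and 7.04 CPM, did not differ between these spots beyond counting error. The 74 B cell rich spots labelled KPC-shV held 6 UMIs of Gzma, too few to compare.

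To ask with which lymphocyte genes each member shared spots, spots were thinned at random to 20000 UMIs each, which left out 70 and 729 shallower spots, and acinar-rich spots were set aside. This left 1403 spots labelled KPC-shZEB1 and 2665 labelled KPC-shV. Of these, 64.1% and 20.5% held a Cd3 UMI, 21.5% and 4.80% a UMI of Cd8a or Cd8b1, and 32.1% and 17.9% an NK gene UMI. In the spots labelled KPC-shZEB1, Nkg7 was detected in 18.9%, Gzma in 14.8%, Prf1 in 10.9%, Gzme in 9.62%, Gzmc in 9.55%, Gzmb in 6.27% and Gzmf in 4.92%. In the spots labelled KPC-shV the order was Gzme (28.1%), Gzma (9.53%), Gzmc (7.62%), Nkg7 (6.6%), Prf1 (5.10%), Gzmb (3.49%) and Gzmf (2.21%). Gzmk was detected in 2.92% and 2.06% of spots. Because thinning is a random draw, another draw to the same depth was compared with it, and its values are given where they change a statement. Unthinned, the share for Gzma was 30.9% and 17.2%, and for Nkg7 42.4% and 14.7%.

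Gzma, Prf1 and Nkg7 shared spots with the Cd3 genes in both libraries. In the KPC-shZEB1-labelled library, Nkg7 was detected in 23.0% (20.3 to 25.9) of the 900 spots with a Cd3 UMI and 11.5% (8.87 to 14.7) of the 503 without, a fold of 1.99 (1.52 to 2.61). Prf1 was detected in 13.6% and 6.16% (fold 2.20, 1.51 to 3.21) and Gzma in 17.7% and 9.74% (fold 1.81, 1.34 to 2.45). In the KPC-shV-labelled library, with 545 spots with and 2120 without a Cd3 UMI, Nkg7 was detected in 14.1% (11.3 to 17.3) and 4.67% (3.81 to 5.66), a fold of 3.03 (2.28 to 4.01). Prf1 was detected there in 8.99% and 4.10% (fold 2.19, 1.56 to 3.07) and Gzma in 16.7% and 7.69% (fold 2.17, 1.71 to 2.76). The shares with a Cd3 UMI lay above those without, beyond counting error, for these 3 genes in both libraries and under both draws. Thinned to 5000 UMIs, the folds of Prf1 and Nkg7 in the KPC-shZEB1-labelled library were 1.19 (0.670 to 2.11) and 1.28 (0.833 to 1.98), whose intervals hold 1.

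Gzmb, Gzmc and Gzmf shared spots with the Cd3 genes in the KPC-shV-labelled library, with folds of 2.14 (1.41 to 3.24), 2.28 (1.74 to 2.98) and 2.67 (1.60 to 4.45). Over 7 alternatives these folds ranged from 1.37 to 3.14, from 1.96 to 2.94 and from 0.426 to 3.74. The direction for Gzmf thus depended on the setting there. In the KPC-shZEB1-labelled library the folds were 1.20 (0.775 to 1.85), 1.27 (0.893 to 1.80) and 0.685 (0.432 to 1.09), whose intervals all hold 1. That of Gzmc rested on the draw, since another draw gave 2.13 (1.41 to 3.20), and it was 2.12 (1.32 to 3.41) at 10000 UMIs and 2.54 (1.65 to 3.91) without thinning. The direction for Gzmf also changed with the draw, from 4.22% of spots with a Cd3 UMI and 6.16% of those without to 6.50% and 4.84%. The difference between the libraries was not tested, and a Cd3 UMI was present in most spots of one and in few of the other. No fold can be read for Gzmk in the KPC-shV-labelled library, where it was 3.49 (2.07 to 5.87) in one draw, 1.08 (0.556 to 2.09) in the other and 0.322 (0.0433 to 2.39) at 10000 UMIs.

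Gzme went the other way in both libraries outside acinar-rich spots. It was detected in 7.89% (6.21 to 9.85) of the spots with a Cd3 UMI and 12.7% (9.94 to 16.0) of those without in the KPC-shZEB1-labelled library, a fold of 0.620 (0.450 to 0.854). In the KPC-shV-labelled library it was detected in 21.3% (17.9 to 25) and 29.9% (28.0 to 31.9), a fold of 0.712 (0.598 to 0.847). Fewer than 3 in 100 of the genes tested had a lower fold in either library (1.02% and 2.60%). With acinar-rich spots kept, the fold of Gzme was 1.33 (0.962 to 1.83) in the KPC-shZEB1-labelled library, and it was 0.993 (0.915 to 1.08) in the KPC-shV-labelled library without thinning.

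Counted by a fold above 2, 1 of the 7 members seen in at least 50 spots passed with the Cd3 genes in the KPC-shZEB1-labelled library, where 1.68% of 13126 such genes did, and 7 of 8 in the KPC-shV-labelled library, where 3.67% of 15328 genes did. In the other draw, 1 passed (Gzmc in place of Prf1) and 6 passed, without Gzmk. With acinar-rich spots kept, 6 of all 8 members passed in the KPC-shZEB1-labelled library. Acinar-rich spots there were poor in Cd3 UMIs, which 7.23% of them held, against 64.1% of the others. Keeping them thus raises the fold of any gene that is scarce in acinar tissue. The share of all genes was not computed for the other draw or with these spots kept. Of the 17 background genes, 0 and 2 had a fold above 2.

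The shares of Gzma and Nkg7 were higher in spots with more Cd3 UMIs, a grouping added after the values were seen. In the KPC-shZEB1-labelled library, Gzma was detected in 9.74%, 11.3%, 16.7% and 25.8% of spots with 0, 1, 2 and 3 or more Cd3 UMIs, and Nkg7 in 11.5%, 18.2%, 23.2% and 28.4%. In the KPC-shV-labelled library, Gzma was detected in 7.69%, 15.9%, 17.2% and 21.3%, and Nkg7 in 4.67%, 8.44%, 24.7% and 34.4%. Gzmc was detected there in 6.04%, 11.3%, 15.1% and 27.9%. In the other draw Gzmc stood at 5.98%, 12.4%, 9.18% and 15.3% (7.88 to 25.7), so its order rests on the draw. Gzme was detected in 3.87% (2.02 to 6.66) and 9.84% (3.70 to 20.2) of the 310 and 61 spots with 3 or more. In spots with 3 or more Cd3 UMIs, the libraries did not differ beyond counting error in Gzma or Nkg7: 25.8% (21 to 31.1) and 21.3% (11.9 to 33.7) for Gzma, and 28.4% (23.4 to 33.8) and 34.4% (22.7 to 47.7) for Nkg7.

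With the genes of the CD8 receptor, the folds in the KPC-shZEB1-labelled library were 1.63 (1.30 to 2.05) for Nkg7 and 1.47 (1.06 to 2.04) for Prf1, and 1.49 (1.18 to 1.87) and 2.03 (1.51 to 2.73) in the other draw. The folds of Gzmb, 1.53 (0.985 to 2.37) and 1.71 (1.13 to 2.60), of Gzmc, 1.5 (1.05 to 2.12) and 1.15 (0.795 to 1.67), and of Gzma, 1.28 (0.964 to 1.70) and 1.38 (1.07 to 1.77), lay beyond counting error in 1 of the 2 draws each. In the KPC-shV-labelled library they were 2.94 (1.64 to 5.24) for Gzmb, 2.46 (1.48 to 4.08) for Prf1, 2.29 (1.51 to 3.46) for Gzmc, 2.26 (1.43 to 3.56) for Nkg7 and 1.60 (1.04 to 2.47) for Gzma, on 128 spots with a Cd8a or Cd8b1 UMI. Over 7 alternatives they ranged there from 1.35 to 4.86 for Gzmb, 1.35 to 3.90 for Prf1 and 1.19 to 3.32 for Gzmc. For Nkg7 the range was 2.00 to 6.46 and for Gzma 1.61 to 4.36. A fold above 2 was reached by 0 members (Prf1 alone in the other draw), against 0.0762% of genes, and by 4 members, against 2.75% of genes.

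The NK genes separated the members less. Gzma lay above 1 in both libraries and both draws, with folds of 1.41 (1.09 to 1.81) and 1.32 (1.003 to 1.75), and 1.70 (1.35 to 2.15) and 1.42 (1.08 to 1.87) in the other draw. Prf1 stood at 1.48 (1.10 to 2.00) and 1.71 (1.19 to 2.46), but at 1.29 (0.955 to 1.75) in the KPC-shZEB1-labelled library in the other draw. Gzmc, at 1.58 (1.17 to 2.13) in the KPC-shV-labelled library, stood at 1.02 (0.710 to 1.46) in the other draw, and Nkg7 there at 1.35 (0.959 to 1.89) and 1.80 (1.32 to 2.46), so the members have no order here. No member passed a fold of 2, against 0.206% and 0.509% of genes. In spots with NK genes but no Cd3 UMI, Nkg7 was detected in 11.3% (6.31 to 18.2) and 5.60% (3.41 to 8.62). Its shares of 11.6% and 4.49% in spots with neither lay inside these intervals. In the other draw the shares were 13.5% (7.77 to 21.3) and 6.53% (4.14 to 9.72), against 11.7% and 4.03% with neither. Whether Nkg7 differs between these spots thus rests on the draw in the KPC-shV-labelled library. In spots with Cd3 but no NK gene Nkg7 was detected in 21.3% (18.0 to 24.8) and 13.8% (10.6 to 17.5) in the first draw.

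**Figure D3:**
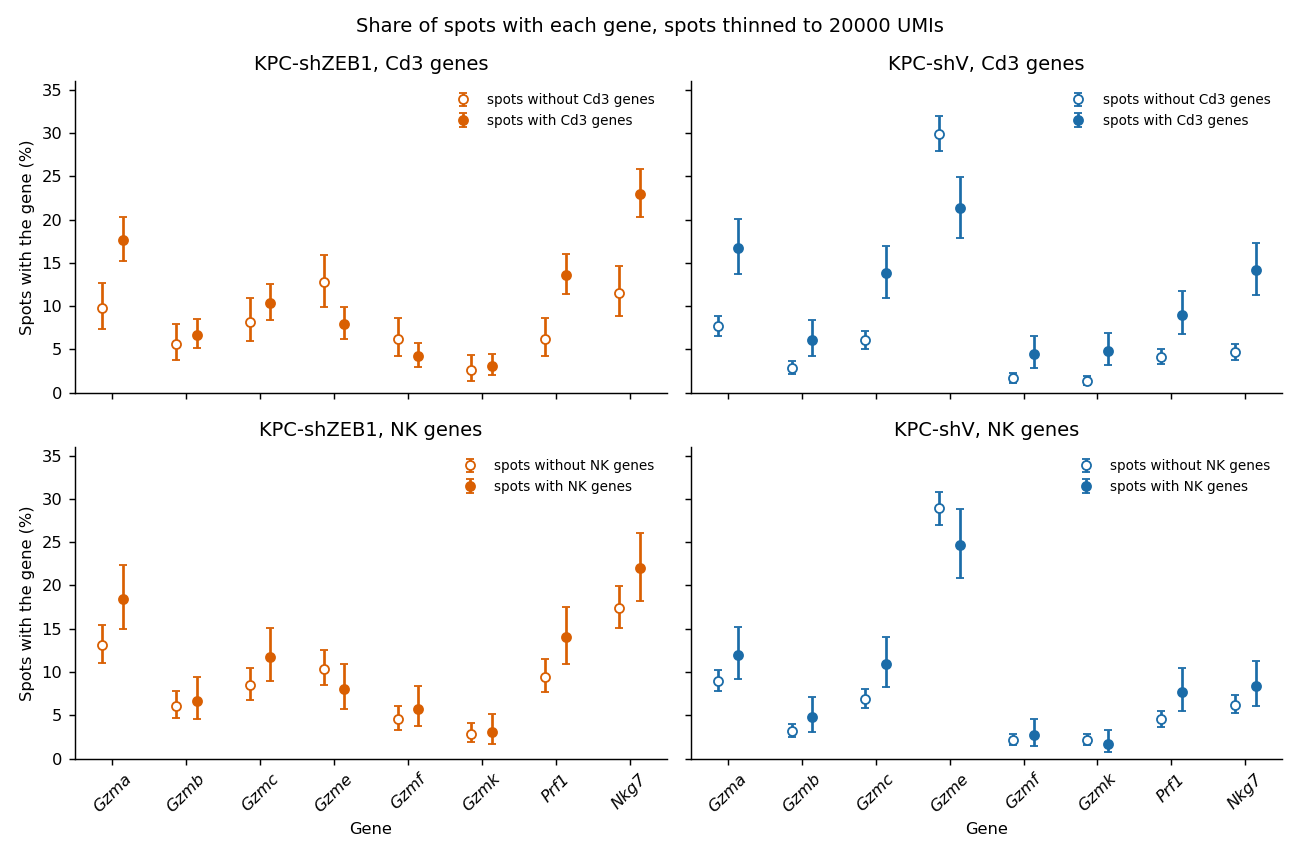
Share of spots in which each gene was detected, after thinning to 20000 UMIs and outside acinar-rich spots, for spots without (open) and with (filled) a UMI of the Cd3 genes (top) or of 8 NK genes (bottom), in the KPC-shZEB1-labelled library (left) and the KPC-shV-labelled library (right); bars are exact 95% binomial intervals. Gzma, Prf1 and Nkg7 are higher in spots with Cd3 genes in both libraries, and Gzme is lower.

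Among themselves, 7 of the 28 pairs of members shared spots beyond counting error in both libraries and both draws: Gzmc with Gzmf, Gzmb, Prf1 and Nkg7, and Prf1 with Gzma, Gzmb and Nkg7. The share among pairs of other genes was not computed, so this count is not read as particular to the members. In the KPC-shZEB1-labelled library, Gzmc was detected in 26 of the 69 spots with Gzmf (37.7%) and in 8.10% of the others, a fold of 4.65 (3.27 to 6.63), and 3.01 (2.00 to 4.54) in the other draw. In the KPC-shV-labelled library it was detected in 16 of the 59 spots with Gzmf (27.1%) and in 7.18% of the others, a fold of 3.78 (2.43 to 5.87), and 5.02 (3.41 to 7.38) in the other draw. Prf1 was detected in 27.1% of the Gzmf spots labelled KPC-shV, a fold of 5.89 (3.74 to 9.27), and in 17.4% of those labelled KPC-shZEB1, where the fold was 1.65 (0.961 to 2.82) in one draw and 2.71 (1.85 to 3.97) in the other. For Gzma and Prf1 the folds of Prf1 were 1.64 (1.15 to 2.33) and 3.04 (2.10 to 4.4). Gzme shared spots with no other member beyond counting error in both draws in either library.

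Across spots, the genes whose log2(UMIs + 1) was most like each member's, taking the smaller Pearson r of the 2 libraries over 1403 and 2665 spots, joined Gzmc with Gzmf and set Gzme beside Mcpt8. These are descriptions over the same spots, which share a section and a library. Gzmf was most like Gzmg (r = 0.76 and 0.63), then Gzmc (0.39 and 0.35) and Prf1 (0.18 and 0.32). Gzmc was most like Gzmf and Gzmg (0.38 and 0.34). Gzme was most like Mcpt8 (0.37 and 0.37) and then Tnnt2 (0.25 and 0.27), a troponin gene of cardiac muscle, and Add2 (0.21 and 0.23), which encodes a membrane skeleton protein, and none of these 3 is a lymphocyte gene. For Gzma, Gzmb, Prf1 and Nkg7 the nearest genes reached no more than 0.32 in either library, among them Ccl5, a chemokine of cytotoxic cells, for Gzma (0.23 and 0.19) and Cxcl9, an interferon-induced chemokine, for Prf1 (0.18 and 0.17). Gzma was next most like Serpina3g (0.20 and 0.18) and H2-Ab1 (0.18 and 0.18). Nkg7 was most like Cd74 (0.19 and 0.19), H2-Ab1 (0.18 and 0.19) and Iigp1 (0.18 and 0.19). The nearest genes of Gzmb were Gzmc, Gbp5 and Prf1, and Prf1 was nearer to Gzmg and Gzmf than to Cxcl9.

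The spots with at least 5 UMIs of Gzmf, a limit chosen after the values were seen, numbered 26 in the KPC-shZEB1-labelled library and 15 in the KPC-shV-labelled library, all outside acinar-rich areas. They held 78.9% and 70.9% of all Gzmf UMIs. In them Gzmg, a neighbour of Gzmf in the cluster, stood at 321.3 CPM (296.0 to 348.1) and 602.4 CPM (554.4 to 653.4), against 2.36 and 2.32 CPM in the other spots outside acinar-rich areas. Whether probes of Gzmf and Gzmg, identical at 87.1% of aligned coding bases, can read each other's transcripts was not tested. Gzmc stood at 78.2 CPM (66.0 to 92.0) and 173.1 CPM (147.9 to 201.5), against 5.29 and 4.03 CPM. Prf1 stood at 41.5 CPM (32.8 to 51.9) and 80.9 CPM (63.9 to 100.9), against 6.27 and 2.64 CPM. A single spot held 28 of these 77 Prf1 UMIs in the KPC-shZEB1-labelled library and 13 of 78 in the other. The intervals treat each UMI as independent. Gzmb followed with 11.3 CPM (7.01 to 17.3) and 49.8 CPM (36.7 to 66.0), against 3.14 and 1.92 CPM. Gzme stood at 18.9 CPM (13.1 to 26.2) and 54.9 CPM (41.2 to 71.9), against 5.38 and 19.7 CPM.

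The same spots were not set apart by T cell or NK genes to that extent. The Cd3 genes stood at 64.1 CPM (53.1 to 76.8) in the Gzmf-rich spots labelled KPC-shZEB1 and 79.7 CPM in the other spots, and at 49.8 CPM (36.7 to 66.0) and 13.5 CPM in the KPC-shV-labelled library. The NK genes stood at 20.5 CPM (14.5 to 28.1) against 20.3 CPM, and at 14.5 CPM (7.94 to 24.4) against 10.1 CPM. Nkg7, at 14.6 CPM (9.59 to 21.2) against 10.7 CPM and 8.29 CPM (3.58 to 16.3) against 3.6 CPM, was not higher beyond counting error in either library. Gzma was at 10.8 CPM (6.59 to 16.7) against 10.5 CPM in the KPC-shZEB1-labelled library and at 71.5 CPM (55.7 to 90.5) against 6.81 CPM in the KPC-shV-labelled library. Of the 69 Gzma UMIs in the Gzmf-rich spots labelled KPC-shV, 25 lay in 1 spot. Tumor epithelium genes (Epcam, Krt7, Krt8 and Krt19) were about as high in these spots as elsewhere in the KPC-shZEB1-labelled library (5857 against 5416 CPM) and lower in the KPC-shV-labelled library (3827 against 6016 CPM). Mast cell genes other than Mcpt8 stood at 57.1 CPM (46.8 to 69.1) against 17.6 CPM, with 46 of these UMIs in 1 spot, and at 6.22 CPM (2.28 to 13.5) against 9.31 CPM. Their part in these levels was not tested.

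Gzme and Mcpt8, which lie near each other on chromosome 14 with Ctsg between them, varied together across spots and between the libraries. Mcpt8 was read at 49.8 CPM (48.6 to 50.9) in the KPC-shZEB1-labelled library and 248.3 CPM (245.9 to 250.6) in the KPC-shV-labelled library, a log2 ratio of -2.32 (-2.36 to -2.28), beside -2.43 for Gzme. The other mast cell and basophil genes measured (Cpa3, Cma1, Mcpt4, Tpsb2, Tpsab1 and Ms4a2) summed to 11.7 CPM (11.1 to 12.3) and 9.05 CPM (8.61 to 9.51), a difference in the opposite direction, though Mcpt4 alone was lower in the KPC-shZEB1-labelled library. Of these genes, 2 and 4 were not above the highest background gene, so this sum is in part background. Mcpt4 was above it in both libraries, at 2.24 and 4.10 CPM. Spots were grouped by their Mcpt8 UMIs after this likeness was seen. At 20000 UMIs, Gzme was detected in 4.15% (2.89 to 5.75), 9.88% (6.94 to 13.5), 11% (6.0 to 18.1) and 44.3% (35.3 to 53.5) of the spots with 0, 1 or 2, 3 to 5 and 6 or more Mcpt8 UMIs in the KPC-shZEB1-labelled library. In the KPC-shV-labelled library the shares were 8.07% (5.85 to 10.8), 17.7% (15 to 20.8), 30.1% (26.3 to 34.1) and 46.1% (42.8 to 49.4). In the other draw the shares with 6 or more Mcpt8 UMIs were 29.6% (21.8 to 38.4) and 48.4% (45.2 to 51.7), so whether the libraries differ in these spots rests on the draw. Of 1403 spots labelled KPC-shZEB1, 122 were of this kind, and of 2665 labelled KPC-shV, 912. In these spots Gzma was detected in 9.02% and 7.68%, against 16.2% and 12% of spots without Mcpt8, and Nkg7 in 10.7% and 4.50%, against 21% and 8.46%.

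**Figure D4:**
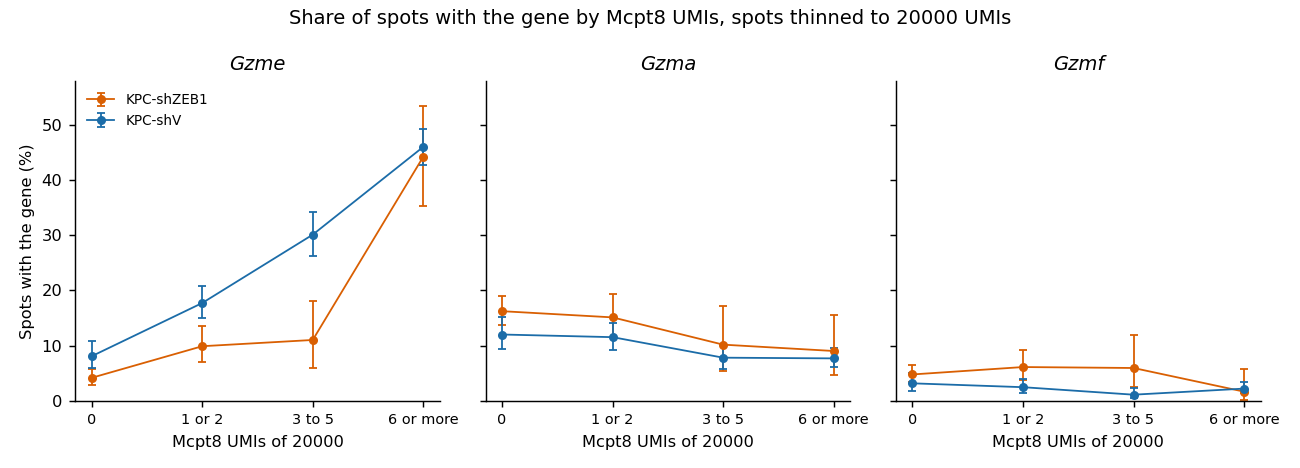
Share of spots with Gzme, Gzma and Gzmf by the number of Mcpt8 UMIs in the spot, after thinning to 20000 UMIs and outside acinar-rich spots, in the KPC-shZEB1-labelled library (orange) and the KPC-shV-labelled library (blue); bars are exact 95% binomial intervals. Gzme climbs to 44.3% and 46.1% of spots, whereas Gzma does not climb.

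The promoters of the cluster genes are shown because Gzme parted from Gzmc, Gzmf and Gzmg in level and in being most like Mcpt8. It was not apart from them in every spot, since it was higher in the Gzmf-rich spots than elsewhere. There it stood at 18.9 against 5.38 CPM in the KPC-shZEB1-labelled library and 54.9 against 19.7 CPM in the KPC-shV-labelled library. RefSeq promoters of 250 bases before to 50 after the gene start (GRCm38.p6) were found for all 9 members. A stretch of 90 bases, placed by the longest run that Gzmc, Gzmd, Gzme, Gzmf and Gzmg share (20 bases), was chosen after the levels were seen and is printed 5′ to 3′ on the minus strand, with capitals where a gene differs from Gzme.
Gzme, chr14:56120646-56120735: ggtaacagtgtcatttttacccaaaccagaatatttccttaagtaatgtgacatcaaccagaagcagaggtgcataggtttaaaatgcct
Gzmd, chr14:56132613-56132702: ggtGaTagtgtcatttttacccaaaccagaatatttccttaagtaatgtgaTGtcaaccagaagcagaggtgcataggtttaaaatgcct
Gzmg, chr14:56159615-56159704: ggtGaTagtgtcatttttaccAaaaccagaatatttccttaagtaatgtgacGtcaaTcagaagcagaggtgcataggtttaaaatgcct
Gzmf, chr14:56211448-56211537: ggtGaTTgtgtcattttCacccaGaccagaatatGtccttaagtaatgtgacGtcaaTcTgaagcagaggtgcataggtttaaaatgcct
Gzmc, chr14:56234673-56234762: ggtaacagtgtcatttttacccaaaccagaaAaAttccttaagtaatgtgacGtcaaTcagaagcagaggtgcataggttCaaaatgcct
Over this stretch Gzmd differed from Gzme at 4 bases, Gzmc and Gzmg at 5 and Gzmf at 9. Gzmc, Gzmf and Gzmg hold the octamer TGACGTCA, known as the cyclic AMP response element (CRE), 57, 82 and 77 bases before the start. Gzme has TGACATCA and Gzmd TGATGTCA at the same place, and the promoters of Gzmb and Prf1, which also shared spots with Gzmc, and of Gzmn do not hold it. The octamer reads the same on both strands, and 1.79% of 32851 promoters hold it. The E-box to which ZEB1 is known to bind, CACCTG or CAGGTG on the other strand, occurs in 20.2% of all promoters. Among the members it was found in Gzma, 135 and 79 bases before the start, and in Prf1, 25 bases before it, and it does not overlap the octamer. Mcpt8 holds one 60 bases before the start. A match of letters is a description and not a measured binding site.

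The members also differed in how their levels followed the tumor epithelium. Spots outside acinar-rich areas, thinned to 20000 UMIs, were set in 4 ranges by their UMIs of Epcam, Krt7, Krt8 and Krt19, a division chosen after the values were seen. ZEB1 is known to repress epithelial genes, so the same number of epithelial UMIs need not mean the same share of tumor cells in both libraries, which was not tested. In the range with the most epithelial UMIs (150 or more, 377 and 663 spots), Gzmf stood at 11.7 CPM and 0.905 CPM (log2 ratio 3.69, 2.81 to 4.70). Most Gzmf UMIs lay in few spots, and this interval treats each UMI as independent. In this range, Nkg7 stood at 11 CPM and 1.89 CPM (2.55, 1.89 to 3.25), and Prf1 at 8.22 CPM and 1.51 CPM (2.45, 1.70 to 3.25). Gzmc stood at 8.36 CPM and 3.39 CPM (1.30, 0.73 to 1.89) and Gzma at 9.15 CPM and 4.83 CPM (0.92, 0.41 to 1.44). The background genes reached 1.86 and 1.51 CPM in this range, so that Gzmf and Prf1 were not above them in the KPC-shV-labelled library.

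In the range with the fewest epithelial UMIs (0 to 49, 404 and 306 spots) the libraries were closer in Prf1, Gzmf and Nkg7, but not in Gzma. Prf1 stood at 5.07 CPM and 5.72 CPM (log2 ratio -0.17, -0.86 to 0.52), and Gzmf at 9.03 CPM and 5.88 CPM (0.62, 0.02 to 1.24), or 0.05 (-0.44 to 0.56) in the other draw. Gzmc stood at 6.31 CPM and 10.9 CPM (-0.79, -1.35 to -0.25), or -0.57 (-1.16 to 0.02) in the other draw. Nkg7 stood at 12.4 CPM and 7.84 CPM (0.66, 0.15 to 1.19, and 0.49, -0.02 to 1.0, in the other draw) and Gzma at 15.1 CPM and 8.01 CPM (0.92, 0.43 to 1.42). Within the KPC-shV-labelled library, Prf1, Nkg7, Gzmc and Gzmf were thus lower in the epithelium-rich than in the epithelium-poor range. In the KPC-shZEB1-labelled library the intervals of these 4 genes overlapped between the ranges, which does not show that their levels were equal. Prf1 stood higher there in the epithelium-rich range, at 8.22 against 5.07 CPM, and at 7.78 against 6.05 CPM in the other draw. Gzma did not share the pattern of these 4 genes. In the KPC-shZEB1-labelled library it went from 15.1 CPM in the epithelium-poor to 9.15 CPM in the epithelium-rich range. In the other draw it went from 15.8 CPM (13.2 to 18.8) to 9.76 CPM (7.67 to 12.3), intervals that do not overlap. In the KPC-shV-labelled library it went from 8.01 to 4.83 CPM. The Cd3 genes were lower in the epithelium-rich range of both libraries, from 118.1 CPM to 46.6 CPM and from 44.9 CPM to 5.20 CPM.

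Gzme was higher in spots with more epithelial UMIs in the KPC-shV-labelled library, from 4.90 CPM in the epithelium-poor range through 11.7 and 23.9 CPM to 25.3 CPM in the epithelium-rich one. In the KPC-shZEB1-labelled library it stood at 1.36, 10.0, 6.04 and 6.23 CPM. The log2 ratio was -1.85 (-2.99 to -0.81), -0.22 (-0.68 to 0.22), -1.98 (-2.51 to -1.5) and -2.02 (-2.50 to -1.58), and in the second range it was -1.0 (-1.56 to -0.48) in the other draw. Mcpt8 was also lowest in the epithelium-poor range of both libraries. Over the same ranges it stood at 49.2, 185.5, 314.3 and 230.5 CPM in the KPC-shV-labelled library. In the KPC-shZEB1-labelled library it stood at 20.5, 116.8, 115.3 and 87.9 CPM. The part of the epithelium in the likeness of Gzme and Mcpt8 was not tested. With each library's own spots divided into 4 equal groups by epithelial UMIs, Gzmf stood at 12 and 0.901 CPM, Prf1 at 8.29 and 1.5 CPM and Gzme at 5.0 and 25.3 CPM in the highest group, and Prf1 at 5.13 and 5.40 CPM in the lowest. In the highest group Gzmf was detected in 5.43% (3.30 to 8.35) and 1.65% (0.827 to 2.94) of spots. In the lowest group of the KPC-shV-labelled library Gzmf was detected in 3.15% (1.96 to 4.77), which overlaps its share in the highest.

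**Figure D5:**
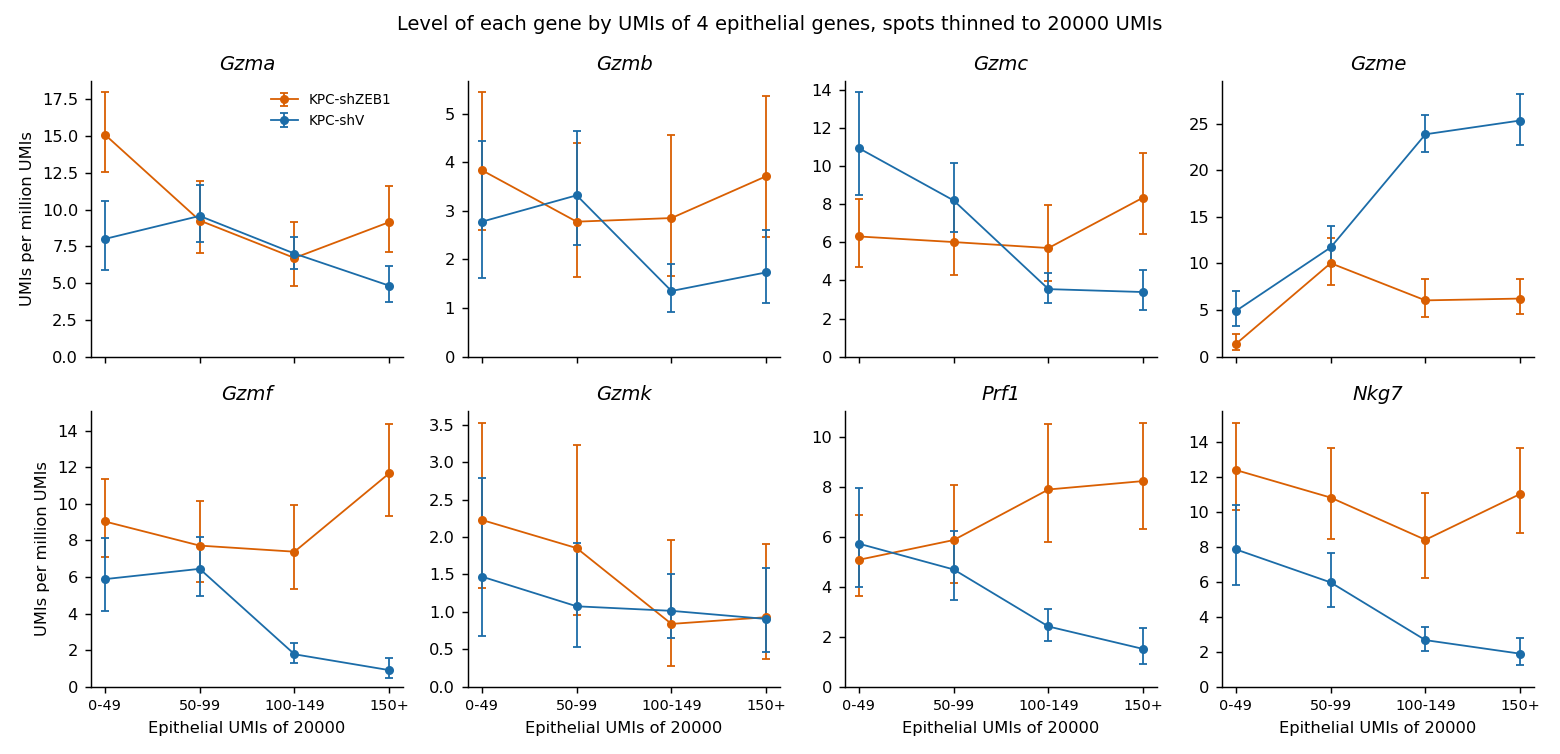
Level of each gene (UMIs per 1000000 UMIs) in spots grouped by their UMIs of Epcam, Krt7, Krt8 and Krt19, after thinning to 20000 UMIs and outside acinar-rich spots, in the KPC-shZEB1-labelled library (orange) and the KPC-shV-labelled library (blue); bars are 95% Poisson intervals, and each panel has its own scale from 0. Gzmf, Prf1 and Nkg7 are lower in the epithelium-rich than in the epithelium-poor range in the KPC-shV-labelled library. Their intervals in these ranges overlap in the KPC-shZEB1-labelled library, which does not show that the levels are equal. Gzme climbs to 25.3 CPM in the KPC-shV-labelled library. Gzma goes from 15.1 CPM in the epithelium-poor to 9.15 CPM in the epithelium-rich range in the KPC-shZEB1-labelled library. Most Gzmf UMIs lay in few spots.

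Genes that work with the granzymes were read by the same rule of size. Over all spots the median log2 ratio was -0.52 for the genes of granule storage and processing, -0.61 for granule release, -0.27 for granzyme inhibitors, 0.10 for effector transcription factors and 0.67 for other killing molecules, beside -0.48 for the 15358 genes. In the same spots, Cst7, which encodes an inhibitor of the proteases that activate granzymes, was higher in the KPC-shZEB1-labelled library, at 6.72 CPM and 2.66 CPM (log2 ratio 1.34, 1.17 to 1.5). It was the 1 of 5 genes of granule storage and processing above 1, and 0 were below -1. Of 6 genes of granule release 1 was below -1, Unc13d, which primes granules for fusion, at 11.2 CPM and 23.9 CPM (-1.09, -1.17 to -1.0). Of 5 effector transcription factors Eomes was below -1, at 1.48 CPM and 3.29 CPM (-1.15, -1.39 to -0.92). Among substrates of granzymes, Hmgb2, a chromatin protein, was below -1, at 5.51 CPM and 11.1 CPM (-1.01). None of 5 granzyme inhibitors and none of 5 other killing molecules, such as Fasl and Ifng, passed 1 in either direction over all spots. The background shares of 2.40% and 9.21% apply to these counts, and Unc13d, Eomes and Hmgb2 were between -0.43 and -0.59 outside acinar-rich spots. Outside those spots, 3 of the 5 other killing molecules and 1 of the 5 granzyme inhibitors were above 1, beside 4.88% of 14365 genes. In both lists 0 genes were below -1 there. Of the 3 further granzymes, Gzmg was read at 5.74 CPM and 5.60 CPM (log2 ratio 0.03, -0.10 to 0.17), and Gzmm and Gzmn were no higher than the highest background gene in both libraries.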

How the data were processed

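Visium CytAssist libraries of fresh frozen, methanol-fixed tumor sections were used. Per the labels, the authors hybridised gene probes and processed the reads with Space Ranger 2.0.1 against mm10, and the deposited matrices hold raw counts of UMIs, not normalized, for each spot over tissue. All deposited spots were kept, and with 1 library per group no test was run.

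Levels are UMIs per 1000000 UMIs of all spots used, with exact 95% Poisson intervals. Log2 ratios have exact conditional binomial intervals, and ratios per Cd3 or NK UMI have log-normal intervals. Spots with over 20% acinar UMIs were called acinar-rich (23 of 28 listed genes were found). Co-detection used spots thinned without replacement to 20000 UMIs, with exact binomial intervals and log-normal intervals for folds. Tissue positions and images were not used, and no doublet caller was run. The named genes are the members, genes of fixed pathway lists past a log2 ratio of 1 with the same sign outside acinar-rich spots, and the 3 genes most like each member seen in at least 50 spots of each library. The members and lists were chosen with earlier results of these data known. The list of granzyme substrates is not reported here in full. On counts simulated for 11421 genes of this comparison with 200 changed genes, a log2 ratio of at least 0.5 in the right direction was recovered for 98% to 100% of them. The simulated counts held counting error only, without UMIs gathered in few spots or differences between tumors. They check the calculation and not how far the libraries stand for their groups. Coding sequences came from GENCODE M21 and were aligned with Biopython 1.88. The scripts ran on Python 3.11.15 with numpy 2.4.6 and scipy 1.17.1. Alternatives changed the spots, scaling, denominator, depth and random draw. The second random draw of pairs of members, of shares by Cd3 and Mcpt8 UMIs and of levels by epithelial UMIs was added after the data were seen.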

Additional observations from a re-analysis of the deposited data

How the results depend on the processing

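No paired analysis was possible because each group has 1 library. Depth limits what can be said of Gzmk, which was not above background, and of spots with a Cd8 UMI labelled KPC-shV. The cause of the changes below was not tested, beyond what each setting removes by construction.
Over all spots the summed level had a log2 ratio of -0.30. It turned to 0.31 without acinar-rich spots, 0.31 without spots over 5% acinar UMIs, 0.30 without those over 40%, 0.14 with acinar genes out of the total and 0.18 with median-of-ratios scaling. It stood at -0.20 as a mean of spot CPM and -0.49 without the 5% of spots with the most of it. Gzmc turned from -0.18 to 0.46, 0.51, 0.44, 0.265 and 0.30 under the same 5 settings. Per Cd3 UMI the sum moved from -2.20 to -2.09 without spots over 100 CPM of B cell genes, -2.02 per Cd8a and Cd8b1 UMI, -0.73 per NK gene UMI and -2.35 without the 5% of spots with the most Cd3. Per NK gene UMI, Gzmf (0.56), Prf1 (0.13) and Nkg7 (0.50) turned above 0. Gzme stayed below 0 under all 10 alternatives for its level, from -3.15 to -1.79, one of them, without spots under 20000 UMIs, added after the data were seen, and Gzmf (9 alternatives), Prf1 and Nkg7 (10 each) stayed above 0. For Gzmf and Gzmk, no value was left once the 5% of spots richest in the gene were dropped, since their UMIs lay in 4.22% and 4.0% of spots labelled KPC-shV.
The number of members with a fold above 2 was less stable. The share of all genes with such a fold was not computed under these alternatives. With Cd3 genes in the KPC-shZEB1-labelled library it moved from 1 to 6 over all spots, 3 at 10000 UMIs and 4 without thinning, and in the KPC-shV-labelled library from 7 to 4 at 5000 UMIs. With Cd8 genes in the KPC-shZEB1-labelled library it moved from 0 to 4 over all spots, 2 at 10000 UMIs, 1 without thinning, 1 with another random thinning and 2 with at least 2 UMIs. With NK genes it moved from 0 to 2 over all spots, 3 at 5000 UMIs, 1 at 10000 UMIs and 1 with at least 2 UMIs in the KPC-shZEB1-labelled library, and from 0 to 2 at 5000 UMIs, 2 at 10000 UMIs and 4 with at least 2 UMIs in the KPC-shV-labelled library.
The fold of Gzme with the Cd3 genes ranged from 0.447 to 1.33 in the KPC-shZEB1-labelled library, the highest over all spots, and from 0.481 to 0.993 in the KPC-shV-labelled library.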
